A study of Mus musculus with 10 samples.

Results

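The genes described here are the cyclins, the cyclin-dependent kinases (CDKs), the CDK inhibitors and the enzymes that switch CDKs on and off, measured by RNA sequencing of sorted lung endothelial cells (ECs), the cells that line blood vessels. The set holds 48 genes, picked by family and role from 55385 gene identifiers in the count table. The rule itself uses no measured value, but it was drawn up with earlier results of these data known, so counts over the members are given as a description. All 48 were found, and all 48 were among the 17997 genes left by a filter on low counts. The samples were 5 control libraries (Cdh5.Cre W/W) and 5 libraries labelled EC-TRAIL KO (Cdh5.Cre Tg/W), all of them Tnfsf10 L/L. Tnfsf10 encodes TRAIL, a ligand of the tumour necrosis factor family that can induce cell death. Both groups carried the floxed Tnfsf10 alleles, and only the second carried the Cre transgene, a tamoxifen-inducible recombinase driven by the endothelial Cdh5 promoter (strain Cdh5.iCreERT2xTnfsf10Lox/Lox). Per the labels' protocols the mice were 8 to 14 weeks of age and tamoxifen was injected at 1 mg per day over 5 or 10 days. The labels do not say which library had which course, nor that each library came from its own mouse, so the p-values measure the spread between libraries, which may in part be technical. The series text names 4 Tg/W animals whereas 5 libraries carry that genotype, and all 5 were used. No group carried Cre without floxed alleles, so the transgene and the deletion cannot be told apart.

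A cyclin binds a CDK and makes it active, and successive cyclin and CDK pairs drive a cell through the division cycle. D-type cyclins with Cdk4 and Cdk6, then E-type cyclins with Cdk2, act in G1 and at the entry into DNA replication, cyclin A2 acts in S phase and G2, and B-type cyclins with Cdk1 drive mitosis. INK4 and Cip/Kip inhibitors hold CDKs back, Wee1 and Pkmyt1 kinases phosphorylate and block Cdk1, and Cdc25 phosphatases remove that block. Another branch of the family, such as Cdk7 with cyclin H and Cdk9 with cyclin T, phosphorylates RNA polymerase II and serves transcription rather than division. Most lung ECs of an adult mouse are thought to be out of the division cycle.

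Total counts were 34435835 to 56897822 in the controls and 29806083 to 34702571 among libraries with the label EC-TRAIL KO (KO-labelled from here on), a difference between groups with an exact two-sided permutation p = 0.0159. Tnfsf10 was at 298 to 374 counts per 1000000 (CPM) in the controls and at 199, 318, 126, 169 and 81.0 CPM in KO-labelled libraries 1 to 5. The KO-labelled library 2 therefore lay within the control range, and the other 4 lay below every control (log2 fold change -0.90, SE 0.276, edgeR adjusted p = 0.425). Without library 2 the log2 fold change was -1.21 (edgeR adjusted p = 0.0345). The summed level of 10 endothelial markers was 13267 to 14996 CPM in controls and 13304 to 15178 in KO-labelled libraries. Markers of other cells were found in both groups, at 7524 to 11455 against 6309 to 9030 CPM for 10 alveolar and airway epithelial markers. The sums were 504 to 702 against 448 to 727 CPM for 7 fibroblast markers, 316 to 428 against 243 to 408 CPM for 6 pericyte and smooth muscle markers, and 43.0 to 59.7 against 40.9 to 59.6 CPM for 10 leukocyte markers, of which 5 were too low to be tested. For 6 platelet and erythroid markers they were 15.2 to 44.7 against 11.4 to 28.5 CPM. No marker passed the test by edgeR, but the log2 fold change was below 0 for 10 of 10 epithelial, 6 of 7 fibroblast and 5 of 6 pericyte and smooth muscle markers, beside 4 of 10 endothelial markers. A fit with the mean level of the markers of other cells as a covariate is given below. Whether such cells cause any of the differences was not tested. KO-labelled library 2 had the lowest sum of all 10 libraries for the epithelial, fibroblast, pericyte and leukocyte lists.

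A few genes that act late in the cell cycle rose in the KO-labelled libraries. In the transcriptional branch the log2 fold changes lay between -0.20 and 0.083. By edgeR's quasi-likelihood test with Benjamini-Hochberg adjustment over all genes, 5 of the 48 members rose and 0 fell at an adjusted p under 0.05. The 5 were Cdk1, Ccnb2, Ccna2, Ccnf and Cdc25c. They make up 10.4% of the members, where 79 of all 17997 genes, or 0.439%, were called higher and 0 were called lower. Of the 5, Cdc25c passed the filter only through the KO-labelled group. The filter asks for 0.289 CPM in 5 libraries, a level that Cdc25c reached in 5 KO-labelled libraries and 2 controls, and that the other 47 members reached in all controls. Among those 47, 4 were called higher, or 8.51%, beside 0.465% of the 16361 genes that reached the level in all controls. At an unadjusted p under 0.05, 16 members were higher and 0 lower, beside 686 higher and 237 lower among all genes. In 9 members, or 18.8%, every KO-labelled library was above every control, beside 1.38% of all genes. The 9 were Ccna2, Ccnf, Ccnb1, Ccnb2, Cdk1, Wee1, Pkmyt1, Cdkn3 and Cdkn2c. In 0 members was every KO-labelled library below every control, beside 0.261% of all genes. The median log2 fold change over the 48 members was 0.086, and over all genes tested it was -0.0085. These are bulk libraries, in which more cells with a transcript and more transcript per cell cannot be told apart.

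**Figure D1:**
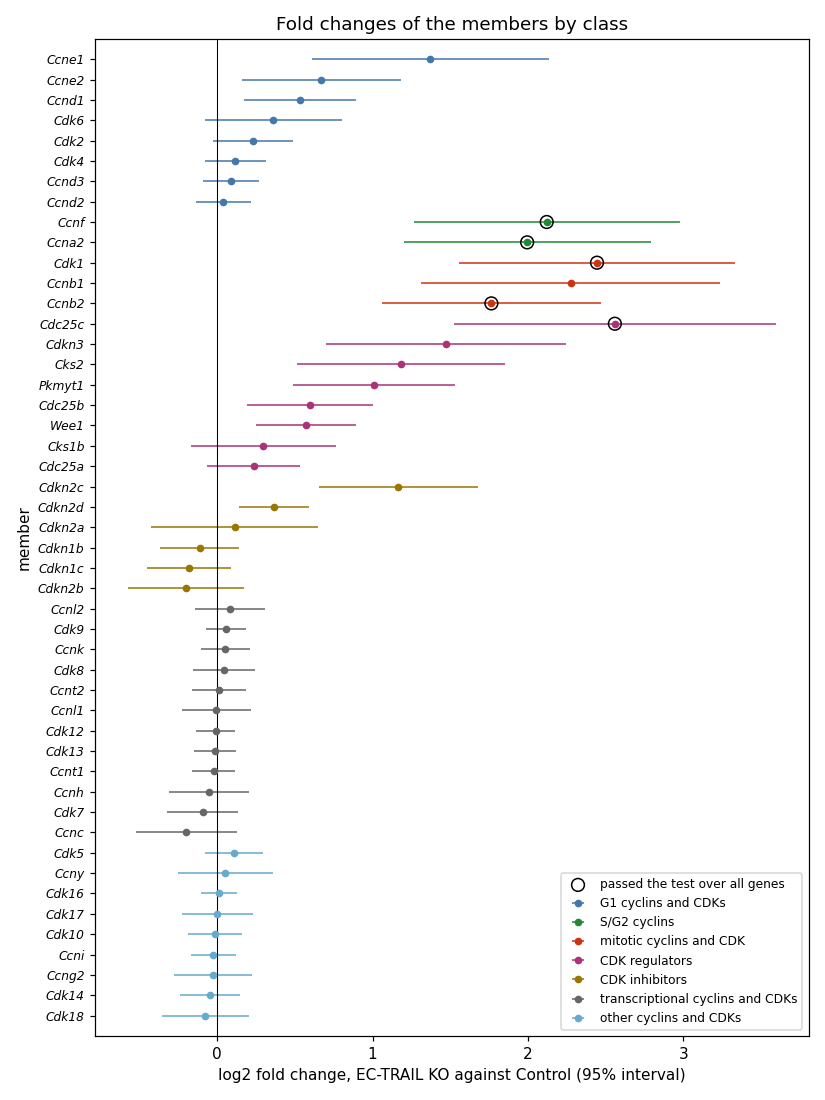
Log2 fold change of each of the 48 members (KO-labelled over control, 5 libraries each, edgeR), grouped by class, with bars for the 95% interval and rings around those with an adjusted p under 0.05. The S/G2 and mitotic members lie between 1.76 and 2.44, whereas the transcriptional members lie between -0.20 and 0.083.

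The calls were lost in 7 of the 10 fits that left out 1 library. With any 1 control left out, or without KO-labelled library 3 or 4, 0 members passed the test. In each of those fits 2 of all genes were called higher. KO-labelled library 2 was the highest of all 10 libraries in 25 of the 48 members, a share not computed over all genes. Without it 3 members passed (Cdk1, Ccna2 and Ccnf), without library 1, 8 passed, and without library 5, 7 passed. In the fits without library 2, 1 and 5, in that order, 87 of 18259, 154 of 18272 and 114 of 18256 genes were called higher. DESeq2 on the same counts called 12 members higher and 0 lower, beside 1.16% of all genes higher. Without TMM scaling, or with limma-voom, 0 passed. In the 11 of 20 alternative fits without a call, the log2 fold change of Cdk1 was 2.09 to 2.60, of Ccna2 1.68 to 2.09, of Ccnf 1.85 to 2.33, of Ccnb2 1.59 to 1.96 and of Cdc25c 2.35 to 2.90, with adjusted p from 0.0501 to 0.338.

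The 5 S/G2 and mitotic members were all higher in every KO-labelled library than in any control. Cyclin A2, cyclin F, cyclin B2 and Cdk1 rose by 3.40-fold to 5.44-fold, and cyclin B1, at 4.84-fold, missed the threshold.

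Cdk1 (ENSMUSG00000019942, chr10:69335146-69352938, minus strand in GRCm38) encodes the kinase that drives entry into mitosis. Its level was 2.17, 2.63, 1.62, 3.30 and 1.98 CPM in controls 1 to 5 and 4.43, 26.6, 10.9, 14.5 and 7.67 CPM in KO-labelled libraries 1 to 5. All KO-labelled values exceeded the highest control, with library 2 far above the rest and library 1 closest to the controls. The mean was 2.34 ± 0.646 CPM (SD, n = 5) in controls and 12.8 ± 8.55 CPM (SD, n = 5) in KO-labelled libraries, a 5.44-fold difference (log2 fold change 2.44, SE 0.408, edgeR adjusted p = 0.0432, 95% interval 1.56 to 3.33). Without KO-labelled library 2 the fold was 3.98.

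Ccnb1 (ENSMUSG00000041431, chr13:100778650-100786570, minus strand) encodes cyclin B1, the main partner of Cdk1 in mitosis. Its level was 0.818, 1.16, 0.748, 1.82 and 1.42 CPM in controls and 1.98, 12.4, 5.50, 5.68 and 3.25 CPM in KO-labelled libraries 1 to 5 (log2 fold change 2.27, SE 0.442, edgeR adjusted p = 0.0515, 95% interval 1.31 to 3.23). Here too the groups did not overlap, although KO-labelled library 1 stood only just above control 4. Over the 20 alternative fits Ccnb1 passed in 6. Ccnb2 (ENSMUSG00000032218, chr9:70407692-70421547, minus strand) encodes cyclin B2, the second B-type cyclin of most dividing cells. It was at 2.21, 3.21, 2.56, 4.88 and 3.31 CPM in controls and 4.99, 18.5, 8.99, 13.8 and 8.63 CPM in KO-labelled libraries (3.40-fold, log2 fold change 1.76, SE 0.323, edgeR adjusted p = 0.0432, 95% interval 1.06 to 2.47). Its lowest KO-labelled library was again library 1, near control 4. A transcribed processed pseudogene on chromosome 8, Ccnb2-ps, can share reads with Ccnb2; its mean was 1.57 ± 0.642 CPM in controls against 1.30 ± 0.368 CPM in KO-labelled libraries (SD, n = 5 each; log2 fold change -0.26, edgeR adjusted p = 0.997).

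Ccna2 (ENSMUSG00000027715, chr3:36564865-36572150, minus strand) encodes cyclin A2, which works with Cdk2 during DNA replication and with Cdk1 before mitosis. It was at 4.68, 6.76, 4.29, 7.35 and 6.12 CPM in controls and 9.48, 47.3, 19.9, 26.0 and 13.8 CPM in KO-labelled libraries 1 to 5, a 3.98-fold rise (log2 fold change 1.99, SE 0.365, edgeR adjusted p = 0.0432, 95% interval 1.20 to 2.79). KO-labelled library 2 was far above every other library, and library 1 was the lowest of its group. Ccnf (ENSMUSG00000072082, chr17:24222198-24251484, minus strand) encodes cyclin F, which binds no CDK and is instead the substrate-binding subunit of a ubiquitin ligase. It was at 1.18, 2.11, 0.983, 1.17 and 1.54 CPM in controls and 3.79, 13.7, 5.73, 3.73 and 3.58 CPM in KO-labelled libraries, 4.35-fold higher (log2 fold change 2.12, SE 0.393, edgeR adjusted p = 0.0432, 95% interval 1.26 to 2.98). KO-labelled libraries 1, 4 and 5 lay close together and above all controls, and library 2 stood apart.

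**Figure D2:**
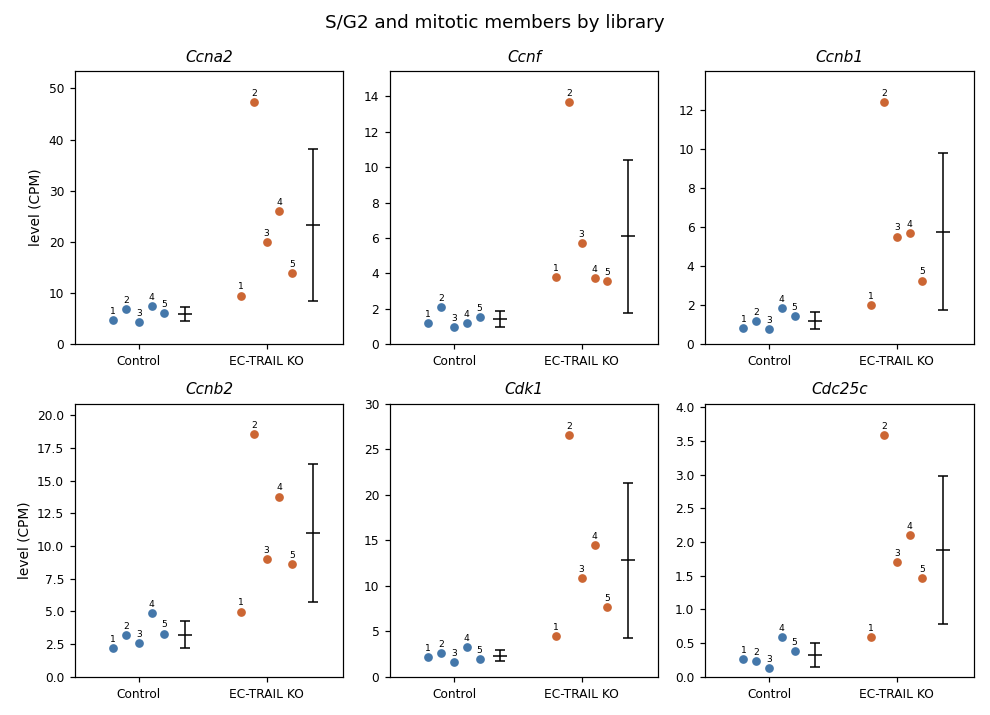
CPM of the S/G2 and mitotic members and of Cdc25c in each library (points, numbered by replicate), with the group mean and SD as bars. KO-labelled library 2 is the highest point in all 6 panels, at 26.6 CPM for Cdk1 where the controls reach 3.30.

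For each of these 5 genes the exact two-sided permutation test over the 252 ways to divide the libraries gave p = 0.00794, the smallest it can give. That value follows from the lack of overlap given above and adds nothing to it. With Benjamini-Hochberg adjustment over all genes the permutation p was 0.483 for each. The order of the KO-labelled libraries was the same, 2, 4, 3, 5, 1 from high to low, for Cdk1, Ccnb1, Ccnb2 and Ccna2, and for 10 of the 48 members in all. All were read from the same 5 libraries, and the share of all genes with that order was not computed. Library 2, at the top of that order, was also the KO-labelled library with the highest Tnfsf10 and with the lowest sums of the 4 marker lists named above. Whether the Tnfsf10 level has a part in the difference was not tested. With the mean log2 level of the markers of other cell types as a covariate, the log2 fold change was 2.44 for Cdk1 (edgeR adjusted p = 0.237) and 1.97 for Ccna2 (edgeR adjusted p = 0.268), and 0 members passed; over all 20 alternatives the adjusted p ran from 2.19e-05 to 0.237 for Cdk1 and from 0.000301 to 0.268 for Ccna2. Without library 2 the fold was 2.96 for Ccna2, 3.01 for Ccnf, 2.81 for Ccnb2 and 3.45 for Ccnb1.

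Late cell cycle genes are known for promoter elements near the start, among them the cell cycle genes homology region (CHR), CCAAT boxes and E2F sites. Promoters of 4 of these 5 genes were in the RefSeq table (GRCm38.p6), and those of Cdk1, Ccnb1, Ccnb2 and Ccnf are shown because in these genes every KO-labelled library was above every control, with that of Cdk7, a kinase of the transcriptional branch (log2 fold change -0.095, 95% interval -0.33 to 0.14), for contrast. Each run is 150 bases, 5′ to 3′ along the gene, and ends before the first base annotated as exon. Capitals mark 3 kinds of letters on either strand. The CHR was searched as TTTGAA, with TTCGAA as its other accepted form. The CCAAT box was searched by these letters. The E2F core was searched as TTCCCGC, as the related form TTGGCGC, as a further form read TTCGCGC, and as the last form read TTGCCGC.
Cdk1 (chr10:69352939-69353088, minus strand): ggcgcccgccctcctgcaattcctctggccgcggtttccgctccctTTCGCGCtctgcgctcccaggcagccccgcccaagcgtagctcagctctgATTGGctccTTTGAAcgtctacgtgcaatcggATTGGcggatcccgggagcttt
Ccnb1 (chr13:100786571-100786720, minus strand): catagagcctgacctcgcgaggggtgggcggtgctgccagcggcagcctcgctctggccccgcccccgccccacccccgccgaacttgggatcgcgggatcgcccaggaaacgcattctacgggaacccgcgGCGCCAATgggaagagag
Ccnb2 (chr9:70421555-70421704, minus strand): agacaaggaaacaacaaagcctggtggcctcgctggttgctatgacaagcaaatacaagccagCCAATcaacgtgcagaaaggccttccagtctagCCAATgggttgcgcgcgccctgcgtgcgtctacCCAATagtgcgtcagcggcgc
Ccnf (chr17:24251485-24251634, minus strand): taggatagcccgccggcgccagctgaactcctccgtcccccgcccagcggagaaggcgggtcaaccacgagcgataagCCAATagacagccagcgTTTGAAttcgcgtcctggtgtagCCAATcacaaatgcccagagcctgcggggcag
Cdk7 (chr13:100730943-100731092, minus strand): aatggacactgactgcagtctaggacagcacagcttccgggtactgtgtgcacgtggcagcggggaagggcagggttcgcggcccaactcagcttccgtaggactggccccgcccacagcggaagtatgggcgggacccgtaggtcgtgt

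Over the 250 bases before the RefSeq start, counted back from the start, Cdk1 held CHR letters at -71 and -15 and CCAAT letters at -208, -80 and -48. Ccnf had CHR letters at -130 and -14 and CCAAT at -147 and -107. Ccnb2 had CCAAT at -87, -54 and -21 and a CHR at -167, and Ccnb1 had CCAAT at -99 and -67 and no CHR letters. E2F core letters stood at -178 and -130 in Cdk1 and at -102 in Ccnb1, where they overlap the CCAAT. Cdk7 held none of the 3 in its window. Of all 32851 promoters in the table, 17.1% held CHR letters, 33.8% CCAAT, 10.1% CCAAT at 2 or more places, and 7.89% an E2F core. Among the 36 members with an entry, CHR letters were in Ccnf, Ccnb2, Cdk1, Cdkn3, Cks1b, Cdkn2b, Ccni and Cdk16. They were in 0 of 6 promoters of the G1 class and 0 of 11 of the transcriptional class. CCAAT was in all 4 S/G2 and mitotic promoters and in all 5 promoters of CDK regulators. It was also in 2 of 6 of the G1 class, 2 of 7 of the inhibitors, 5 of 11 of the transcriptional class and 3 of 7 of the other members. E2F core letters were in Cdk1 and Ccnb1 and also in Cdk2, Cdc25a, Cdkn2a, Cdkn2c and the transcriptional Ccnl1. These are matches of letters, not sites of binding.

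The 8 CDK regulators were all highest in KO-labelled library 2, a share not computed over all genes. By edgeR 1 of the 8 passed, or 12.5%, beside 0.439% of all genes called higher. That gene, Cdc25c, passed the filter only through the KO-labelled group, as given above. The class median log2 fold change was 0.80.

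Cdc25c (ENSMUSG00000044201, chr18:34732993-34751533, minus strand) encodes a phosphatase that activates Cdk1. Its level was 0.266, 0.238, 0.128, 0.585 and 0.385 CPM in controls and 0.583, 3.58, 1.70, 2.10 and 1.46 CPM in KO-labelled libraries 1 to 5. KO-labelled library 1 lay just within the control range, and the other 4 were above every control. The difference was 5.89-fold (log2 fold change 2.56, SE 0.477, edgeR adjusted p = 0.0432, 95% interval 1.52 to 3.60; exact permutation p = 0.0159), on as few as 6 counts in a library. Without KO-labelled library 2 it was 4.58-fold. Over the 20 alternative fits Cdc25c passed in 7, and it did not pass with counts thinned to the shallowest library (edgeR adjusted p = 0.0555; 2.42e-05 to 0.268 over all 20). Cdc25b, a phosphatase of the same family that acts at mitotic entry, differed by 0.60 on the log2 scale (SE 0.186, edgeR adjusted p = 0.443). Cdc25a, which also acts on Cdk2 at the start of replication, was at 12.9, 11.7, 12.2, 11.5 and 11.0 CPM in controls and 13.2, 19.8, 12.3, 13.0 and 11.5 CPM in KO-labelled libraries. Apart from library 2, its KO-labelled levels overlapped those of the controls (log2 fold change 0.23, SE 0.137, edgeR adjusted p = 0.997).

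The other 7 regulators did not pass the test by edgeR. DESeq2 called 4 of them higher, Pkmyt1 (adjusted p = 0.00429), Cdkn3 (adjusted p = 0.00929), Cks2 (adjusted p = 0.0156) and Wee1 (adjusted p = 0.0265). Over the 20 alternatives Pkmyt1 passed in 3 and the other 3 genes in 1 each, and the highest adjusted p was 0.437 for Pkmyt1, 0.652 for Cdkn3, 0.548 for Cks2 and 0.577 for Wee1. Of the kinases that oppose Cdc25, Wee1 was 8.36 ± 1.23 CPM in controls and 12.4 ± 2.49 CPM in KO-labelled libraries (SD, n = 5; log2 fold change 0.57, SE 0.147, edgeR adjusted p = 0.205), and Pkmyt1 was 6.92 ± 1.36 and 13.9 ± 5.64 CPM (SD, n = 5; log2 fold change 1.01, SE 0.241, edgeR adjusted p = 0.145). For both, all KO-labelled libraries were above all controls. Cdkn3, a phosphatase that removes the activating phosphate of CDKs, differed by 1.47 on the log2 scale (SE 0.356, edgeR adjusted p = 0.156), also without overlap. The small CDK-binding proteins Cks2 and Cks1b had 1.18 (SE 0.308, edgeR adjusted p = 0.214) and 0.30 (SE 0.214, edgeR adjusted p = 0.997). Cks1b has a near-identical copy, Cks1brt, which held 4.07 to 11.2 counts per library.

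Of the 8 G1 cyclins and CDKs none passed the test by edgeR, beside 0.439% of all genes called higher. DESeq2 called Ccne1 higher (adjusted p = 0.0185). That was the only call of Ccne1 over the 20 alternatives, in which its adjusted p reached 0.574. The class median log2 fold change was 0.29, and 0.14 without KO-labelled library 2. All 8 fold changes were above 0, with 3 at an unadjusted p under 0.05 (Ccnd1, Ccne1 and Ccne2).

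Ccnd1, which encodes cyclin D1 and is a target of many growth signals, was at 151, 165, 156, 175 and 158 CPM in controls and 202, 326, 197, 283 and 157 CPM in KO-labelled libraries 1 to 5. KO-labelled libraries 1 to 4 were above all controls and library 5 was within their range (log2 fold change 0.53, SE 0.166, edgeR adjusted p = 0.443, 95% interval 0.17 to 0.89). CPM per kilobase (kb) of annotated exon allows a rough comparison of levels between genes. On that scale Ccnd1 was at 34.2 in controls, against 13.3 for Ccnd2 and 13.1 for Ccnd3. The other D-type cyclins had small fold changes. Ccnd2 was at 124, 132, 141, 106 and 125 CPM in controls and 143, 121, 131, 128 and 121 CPM in KO-labelled libraries (log2 fold change 0.039, SE 0.0814, edgeR adjusted p = 0.997). Ccnd3 was at 104, 113, 125, 107 and 124 CPM and 111, 125, 129.7, 108 and 136 CPM in the same order (log2 fold change 0.089, SE 0.0825, edgeR adjusted p = 0.997). In both genes the groups overlapped, and the 95% intervals of the log2 fold change were -0.14 to 0.22 and -0.09 to 0.27.

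The E-type cyclins, which activate Cdk2 at the start of replication, were far less abundant than the D-type cyclins. Ccne1 was at 0.571, 0.510, 0.855, 0.954 and 0.710 CPM in controls and 1.14, 3.28, 1.47, 2.49 and 0.929 CPM in KO-labelled libraries, of which all but library 5 exceeded every control (log2 fold change 1.37, SE 0.351, edgeR adjusted p = 0.199, 95% interval 0.61 to 2.14). Ccne2 was at 3.35, 3.38, 3.76, 3.97 and 5.24 CPM in controls and 4.03, 10.2, 6.11, 6.37 and 4.61 CPM in KO-labelled libraries, and libraries 1 and 5 overlapped the controls (log2 fold change 0.67, SE 0.235, edgeR adjusted p = 0.644, 95% interval 0.16 to 1.18). Neither passed by edgeR. Without KO-labelled library 2 the log2 fold change was 1.07 for Ccne1 and 0.43 for Ccne2.

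Among the G1 kinases, Cdk4 was at 57.8, 60.8, 57.5, 56.6 and 53.3 CPM in controls and 61.3, 75.0, 61.3, 61.4 and 50.6 CPM in KO-labelled libraries, where library 5 was the lowest of all 10 (log2 fold change 0.11, SE 0.0904, edgeR adjusted p = 0.997). Its relative Cdk6 was at 72.2, 70.6, 75.7, 93.2 and 60.5 CPM in controls and 82.1, 142, 95.5, 103 and 55.1 CPM in KO-labelled libraries, with library 2 highest and library 5 lowest of all 10 (log2 fold change 0.36, SE 0.202, edgeR adjusted p = 0.997). Cdk2 was at 31.4, 26.6, 24.9, 27.1 and 27.1 CPM in controls and 33.8, 42.2, 29.0, 27.1 and 28.4 CPM in KO-labelled libraries (log2 fold change 0.23, SE 0.118, edgeR adjusted p = 0.997). The groups overlapped for all 3 kinases. The 95% interval was -0.082 to 0.31 for Cdk4, -0.078 to 0.80 for Cdk6 and -0.03 to 0.49 for Cdk2. Without KO-labelled library 2 the log2 fold changes were 0.036, 0.17 and 0.11 in that order.

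**Figure D3:**
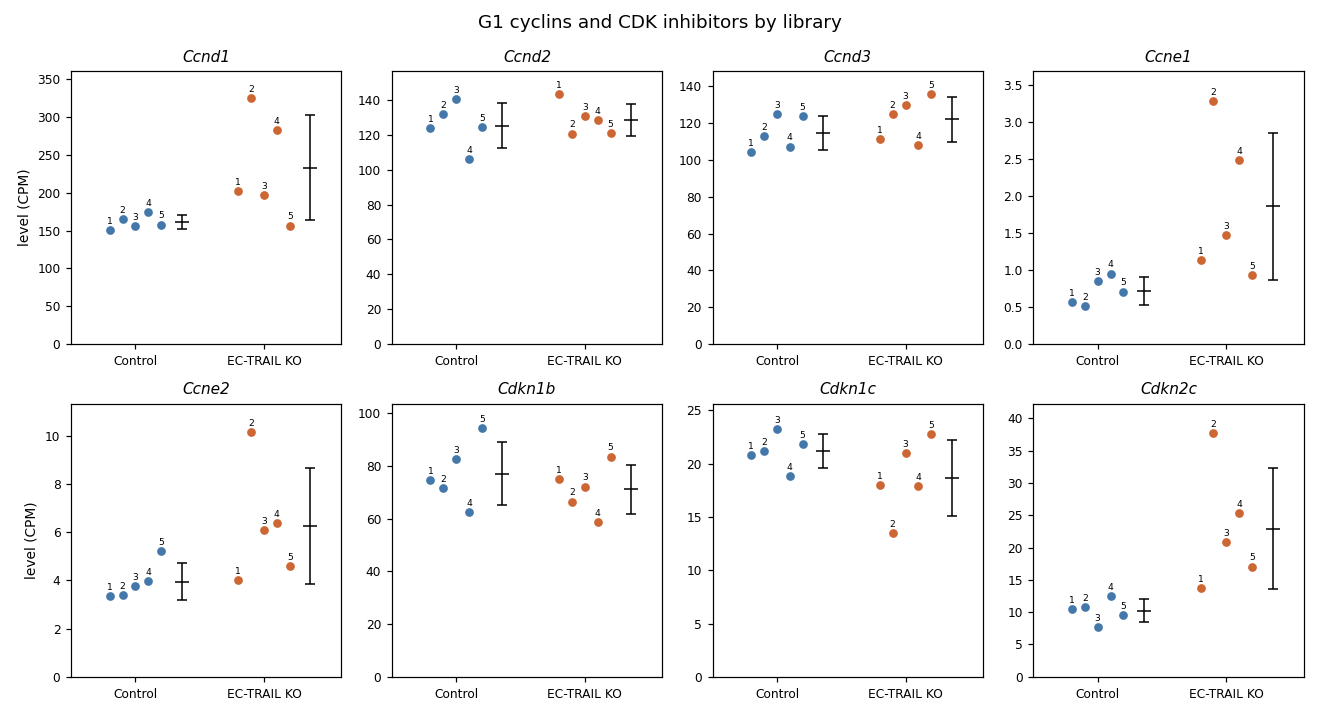
CPM of the D-type and E-type cyclins and of 3 CDK inhibitors in each library (points, numbered by replicate), with group mean and SD as bars. For Cdkn2c every KO-labelled point, from 13.8 CPM upward, is above the highest control at 12.6 CPM, whereas the groups overlap for Cdkn1b and Cdkn1c.

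None of the 6 CDK inhibitors passed the test by edgeR, beside 0.439% of all genes called higher. Their median log2 fold change was -0.00035. The members did not share a direction.

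Cdkn2c, an INK4 inhibitor of Cdk4 and Cdk6, was at 10.4, 10.8, 7.74, 12.6 and 9.55 CPM in controls and 13.8, 37.7, 20.8, 25.4 and 17.1 CPM in KO-labelled libraries 1 to 5. Every KO-labelled library was above every control, in the order 2, 4, 3, 5, 1 seen for Cdk1 (log2 fold change 1.17, SE 0.236, edgeR adjusted p = 0.0612, 95% interval 0.65 to 1.68). DESeq2 called it higher (adjusted p = 0.000172), and over all 20 alternatives it passed in 5. The related Cdkn2d differed by 0.37 on the log2 scale (SE 0.103, edgeR adjusted p = 0.297), with 4 of 5 KO-labelled libraries above all controls. Cdkn2b, an INK4 inhibitor induced by transforming growth factor beta, was 27.9 ± 4.83 CPM in controls and 24.3 ± 6.72 CPM in KO-labelled libraries (SD, n = 5; log2 fold change -0.20, SE 0.173, edgeR adjusted p = 0.997). Cdkn2a, whose locus encodes an INK4 inhibitor and a separate activator of the p53 pathway that gene counts do not separate, was low, at 0.600 ± 0.133 and 0.653 ± 0.149 CPM (SD, n = 5; log2 fold change 0.11, SE 0.247, edgeR adjusted p = 0.997).

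The Cip/Kip inhibitors Cdkn1b and Cdkn1c hold CDKs in check in resting cells. Cdkn1b was at 74.7, 71.5, 82.7, 62.4 and 94.3 CPM in controls and 75.1, 66.5, 72.2, 58.7 and 83.6 CPM in KO-labelled libraries (log2 fold change -0.11, SE 0.117, edgeR adjusted p = 0.997). Cdkn1c was at 20.8, 21.1, 23.2, 18.8 and 21.8 CPM in controls and 18.0, 13.5, 21.0, 17.9 and 22.8 CPM in KO-labelled libraries, where libraries 1, 2 and 4 were below all controls and libraries 3 and 5 within their range (log2 fold change -0.18, SE 0.124, edgeR adjusted p = 0.997). The 95% intervals, -0.37 to 0.14 and -0.45 to 0.086, included 0. The third gene of that family, Cdkn1a, a target of p53, was at 448, 354, 778, 603 and 595 CPM in controls and 399, 424, 640.0, 723 and 751 CPM in KO-labelled libraries (log2 fold change 0.08, SE 0.226, edgeR adjusted p = 0.997), with a wide spread in both groups.

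None of the 12 members of the transcriptional branch passed the test by edgeR or DESeq2. Over all genes 0.439% were called higher by edgeR and 1.16% by DESeq2, so a count of 0 among 12 is near those shares. Their log2 fold changes ran from -0.20 for Ccnc to 0.083 for Ccnl2, with SE of 0.149 or less (edgeR adjusted p = 0.997 each). All 12 of the 95% intervals lay between -0.52 and 0.31. Ccnc, the cyclin of the Mediator kinases Cdk8 and Cdk19, was at 11.3, 12.0, 13.6, 9.65 and 18.1 CPM in controls and 11.1, 11.1, 12.0, 9.80 and 12.1 CPM in KO-labelled libraries. Ccnl2, a cyclin tied to RNA splicing, was at 172, 137, 139, 159 and 149 CPM in controls and 184, 172, 162, 124 and 160.0 CPM in KO-labelled libraries. The groups overlapped widely for both. Ccnh and Cdk7 of the CDK-activating kinase had log2 fold changes of -0.054 and -0.095. Cdk9 with its cyclins Ccnt1 and Ccnt2, which release paused RNA polymerase II, had 0.056, -0.023 and 0.012. Ccnk with Cdk12 and Cdk13, which serve transcript elongation, had 0.051, -0.011 and -0.014, and Cdk8 and Ccnl1 had 0.043 and -0.0059.

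The 9 remaining members have roles outside the core cycle or less settled ones. They ran from -0.077 for Cdk18 to 0.11 for Cdk5 on the log2 fold change scale. By edgeR 0 passed, beside 0.439% of all genes called higher. Cdk5, best known for its work in neurons, was at 14.4, 17.0, 16.3, 15.3 and 14.3 CPM in controls and 17.6, 17.3, 17.7, 14.3 and 16.4 CPM in KO-labelled libraries (log2 fold change 0.11, SE 0.0852, edgeR adjusted p = 0.997). Cdk18 was at 15.7, 13.7, 15.8, 13.5 and 14.7 CPM in controls and 12.3, 10.3, 14.5, 14.6 and 17.9 CPM in KO-labelled libraries (log2 fold change -0.077, SE 0.130, edgeR adjusted p = 0.997). The groups overlapped in both genes. Log2 fold changes of the others were -0.027 for Ccng2, a cyclin linked to growth arrest, -0.026 for Ccni, 0.051 for Ccny, -0.016 for Cdk10, -0.049 for Cdk14, 0.011 for Cdk16 and 0.0005 for Cdk17. Cdk14 and Cdk16 are partners of the membrane-bound cyclin Y encoded by Ccny.

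**Figure D4:**
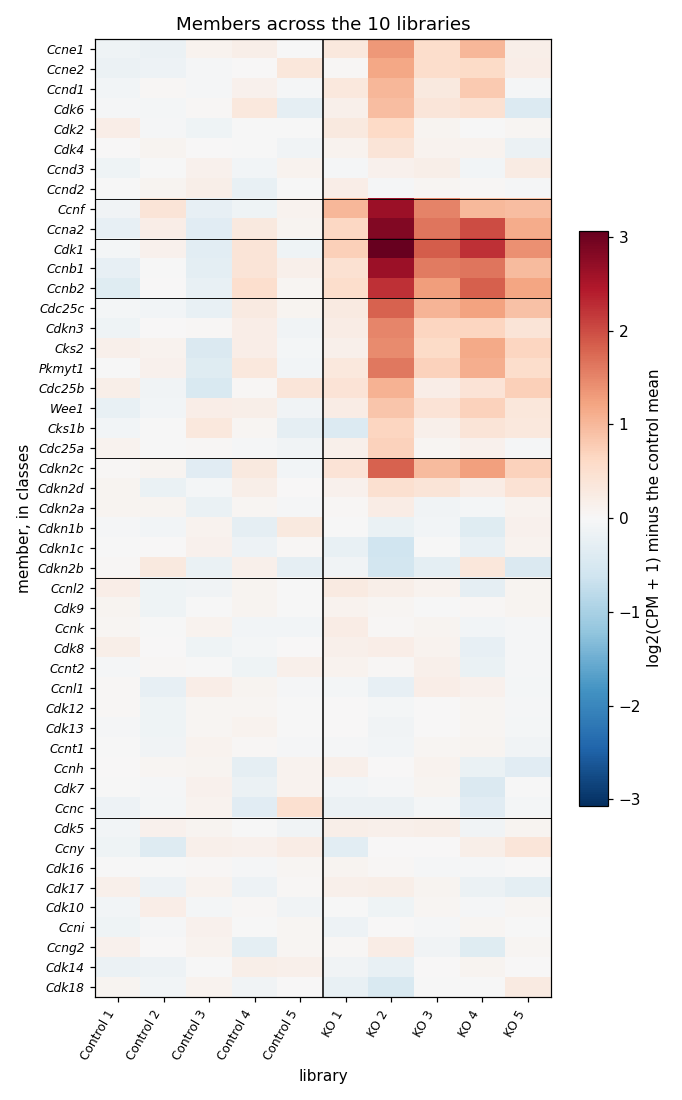
Log2(CPM + 1) of each of the 48 members in each of the 10 libraries minus its mean over the 5 controls, in rows grouped by class. KO-labelled cells are red in the S/G2 and mitotic rows and in the CDK regulator rows, darkest in library 2, except for Cks1b in library 1 (3.21 CPM, the lowest of the 10 libraries) and Cdc25a in library 5 (11.5 CPM), and the transcriptional rows stay near 0 throughout.

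Class medians of the level per length differed in controls, while the ranges of the classes overlapped. The median was 0.474 CPM per kb for the 3 mitotic members and 0.805 for the 2 S/G2 members. It was 2.17 for the CDK regulators, 9.19 for the G1 members, 9.27 for the transcriptional members, 8.81 for the inhibitors and 8.46 for the 9 other members. The mitotic members ran from 0.283 to 2.11, the G1 members from 0.270 to 34.2 and the inhibitors from 0.512 to 20.1. The highest members were Ccnl1 at 44.2, Ccni at 37.5 and Ccnd1 at 34.2 CPM per kb, and the lowest was Cdc25c at 0.0652. In KO-labelled libraries the mitotic median was 2.59 and the S/G2 median 3.24 CPM per kb, so that both stayed below the control medians of the G1, inhibitor and transcriptional classes.

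**Figure D5:**
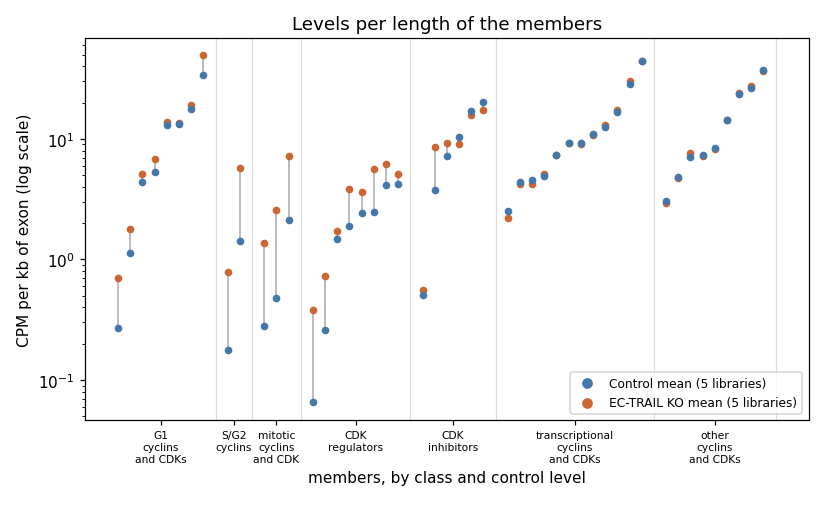
Mean CPM per kb of exon of each member in controls and in KO-labelled libraries (log axis), ordered within classes by control level. The gap between the paired points is wide for the S/G2 and mitotic members, whose control medians are 0.805 and 0.474 CPM per kb, and narrow for the transcriptional members.

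Outside the set, partners of these genes were read from the same fit. Of 24 partners of the CDK pathway, all tested, 4 rose, or 16.7%, and 0 fell, beside 0.439% of all genes called higher. Their median log2 fold change was 0.31, beside -0.0085 over all genes. In 17 partners KO-labelled library 2 was the highest, a share not computed over all genes. This list too was chosen with earlier results of these data known. Foxm1, a transcription factor of G2 and mitotic genes, was at 7.63, 10.6, 6.90, 10.0 and 7.75 CPM in controls and 15.4, 57.3, 23.9, 33.7 and 18.0 CPM in KO-labelled libraries (log2 fold change 1.79, SE 0.315, edgeR adjusted p = 0.0432). Cdc20, an activator of the ubiquitin ligase that destroys B-type cyclins, was at 4.76, 6.15, 4.02, 6.59 and 5.35 CPM in controls and 8.64, 31.2, 13.2, 19.5 and 11.6 CPM in KO-labelled libraries (log2 fold change 1.64, SE 0.302, edgeR adjusted p = 0.0432). Every KO-labelled library was above every control in 7 of the 24 partners, or 29.2%, beside 1.38% of all genes. The 7 were Foxm1, Cdc20, Plk1, E2f7, E2f8, Mybl2 and Tfdp1. E2f8 had the largest log2 fold change of the list, 1.82, and did not pass (SE 0.405, edgeR adjusted p = 0.0982). The mitotic kinase gene Plk1 differed by 1.81 on the log2 scale (SE 0.331, edgeR adjusted p = 0.0432), and E2f7, a repressor of the E2F family, 1.63 (SE 0.314, edgeR adjusted p = 0.0482). Over the 20 alternative fits Foxm1, Cdc20 and Plk1 each passed in 9 and E2f7 in 8, and the call of each was lost with any 1 control, or KO-labelled library 3 or 4, left out. Upstream in the pathway, the retinoblastoma gene Rb1, a brake that CDKs release, had -0.092 (edgeR adjusted p = 0.997). E2f1, an activator that Rb1 restrains, had 0.65 (edgeR adjusted p = 0.944), and Skp2, a ligase subunit that targets the Cdkn1b protein, 0.54 (edgeR adjusted p = 0.957).

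Of 25 further family genes 20 were tested, and 0 passed in either direction, beside 0.439% of all genes called higher (median log2 fold change -0.033). Ccng1, a cyclin gene induced by p53, was among them at 0.054 (edgeR adjusted p = 0.997). Ccna1, Ccnb3, Cdk15 and Cdk5r2 were too low to be tested.

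Some members share exon bases with a gene on the opposite strand, and whether counting used strand is not stated in the sources used here. As a share of a member's exon length, the overlap was 30.7% for Cdkn1c with Gm44732, 23.4% for Ccnd1 with LTO1, 19.7% for Cdk4 with Tspan31, 17.4% for Ccne2 with Ints8, 12.7% for Cdc25c with Gm3550 and 12.5% for Ccna2 with Exosc9.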

How the data were processed

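RNA of sorted lung ECs was isolated with TRIzol, and poly-A libraries were made with the KAPA stranded mRNA-seq kit, per the labels' protocols. The authors deposited 1 table of expected counts per gene and library, of which 81.2% are whole numbers. STAR 2.7.1a, RSEM 1.2.28 and GRCm38 are named in the submitters' processing notes; the annotation release, strand setting and filters: not given in the sources used here. Groups come from the genotype labels. Identifiers were matched to GENCODE by their stable part (55144 of 55385 matched, and the others held 0.0102% of counts). Expected counts were rounded, scaled by TMM, filtered with filterByExpr (minimum count 10) and tested with edgeR 4.0.16 (quasi-likelihood F-test, group only, R 4.3.3), with Benjamini-Hochberg adjustment over all 17997 genes at 0.05. CPM use TMM library sizes. CPM per kb divide by the length of all annotated exons of a gene, with shared bases counted once, not by the length of the transcripts present. The SE is the log2 fold change over the root of F, and intervals are at 95%. Exact two-sided permutation tests used log2(CPM + 1) over the 252 ways to divide the libraries. The fit was also run on simulated counts with known fold changes, set the same for every KO-labelled library, unlike the spread between libraries seen here. Its outcome is not given here. No pair of libraries agreed within sampling noise (lowest chi-square per degree of freedom 20.7).

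The members and lists were chosen with earlier results of these data known. Values by library are given for members past the threshold, for the main cyclins, CDKs and inhibitors of the cycle, and in each other class for the members with the largest and the smallest fold change. Alternatives were RLE factors, library size only, no filter, a mean CPM of at least 1, a replicate block, DESeq2 1.42.0, limma 3.58.1 (voom, with and without quality weights), thinning to the shallowest library, a covariate from markers of other cell types, and leaving out each library. Motif letters were searched in RefSeq promoters.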

Additional observations from a re-analysis of the deposited data

Results flagged for a closer look

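In 116 groups of 5 libraries checked, over members and partner genes, 5 held a library far from the other 4 by Dixon's test; chance gives about 1 in 20 groups. In 4 of the 5 the library was KO-labelled library 2. Ccnf was at 13.7 CPM there, where the nearest KO-labelled library was at 5.73. Cdc25a was at 19.8 CPM, with the nearest at 13.2. Cdkn3 was at 3.55 CPM, with the nearest at 1.53. The partner gene Plk1 was at 19.6 CPM, with the nearest at 8.35. The fifth was Ccnh, cyclin H of the CDK-activating kinase, at 11.0 CPM in control 4, where the nearest control was at 13.7.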

How the results depend on the processing

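The count of members called higher was 5, the same genes, with RLE factors and with genes of a mean CPM under 1 removed. It was also 5 with counts thinned to the shallowest library, where Ccnb1 was called and Cdc25c was not. It was 7 without a filter. DESeq2 gave 12, and the count was 0 with library size only, with limma-voom, with limma-voom and quality weights, and with the marker covariate. Leaving out each replicate gave 0 to 8 members. Of all genes, 79 were called higher and 0 lower. The counts higher were 2 with library size only, 141 without a filter (2 lower), 208 with DESeq2 (3 lower), 2 with limma-voom, 2 with quality weights and 1 with the marker covariate. Leaving out each replicate gave 2 to 154 higher and 0 to 1 lower. The adjusted p of Tnfsf10 passed only without KO-labelled library 2 (-1.21); over these fits its log2 fold change ran from -1.21 to -0.72. The median of the CDK inhibitors was -0.12 once genes of a mean CPM under 1, Cdkn2a among them, were removed. No member was called lower under any alternative.

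Same-numbered libraries deviated together with correlations of 0.227, 0.068, 0.210, 0.433 and 0.114 for pairs 1 to 5. All 5 are above 0, but not all are above 0.1, the level asked for here to treat the numbers as pairs. The main fit used group only because the labels state no batch and no pairing. Whether same-numbered libraries share a batch was not tested. The replicate block gave 8 members higher, the same 5 with Ccnb1, Cdkn2c and Pkmyt1, and 146 genes higher and 3 lower, and 4 of 5 pairs correlated best with their own number.

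The sign changed only in 19 genes, whose reported log2 fold changes are at most 0.20 in size. Without a filter Ccnt2 was -0.00063, Cdk16 -0.0015 and Cdk17 -0.013. Without genes of a mean CPM under 1 Cdk17 was -8.00e-04. With the replicate block Cdk17 was -0.0052. With limma-voom Cdk17 was -0.0056. With quality weights Ccnl1 was 0.047, Cdk12 0.0018 and Cdk13 0.0056. With thinned counts Ccnl1 was 0.00095 and Cdk17 -0.0025. With the marker covariate Cdkn2b was 0.00039, Ccnl1 0.0023, Ccnt2 -0.028, Cdk8 -0.023, Cdk10 0.047, Cdk16 -0.013, Cdk17 -0.098 and Ccng1 -0.0092. Over the fits leaving out each replicate, the log2 fold changes of those that changed sign ran as follows. They were Ccnd2 -0.016 to 0.081, Ccng1 -0.0064 to 0.13, Ccng2 -0.098 to 0.052, Ccnh -0.12 to 0.016, Ccni -0.059 to 0.00501, Ccnl1 -0.066 to 0.051, Ccnt1 -0.049 to 0.0025, Ccnt2 -0.024 to 0.063 and Ccny -0.041 to 0.13. They were also Cdk10 -0.042 to 0.041, Cdk12 -0.044 to 0.0025, Cdk13 -0.045 to 0.011, Cdk16 -0.0049 to 0.024, Cdk17 -0.048 to 0.067, Cdk18 -0.18 to 0.013, Cdk8 -0.0022 to 0.11, Cdkn1a -0.045 to 0.23 and Cdkn2a -0.013 to 0.20. The cause was not tested. Depth limits Cdc25c, at 6 to 108 counts per library.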
